A study of Mus musculus with 192 samples.

Results

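Renin, the mineralocorticoid receptor and the sodium and water transporters of the distal nephron were followed in the kidneys of flown and ground mice that had or lacked Nrf2, the transcription factor that drives detoxication and antioxidant genes. The 10 genes were chosen by symbol from the 54752 genes of the deposited table. The rule uses no measured value, although earlier results of these data were known when the genes were chosen. They were Ren1, Nr3c2, Scnn1a, Scnn1b, Scnn1g, Slc12a1, Slc12a3, Umod, Aqp2 and Aqp3. All 10 were found and all 10 had enough counts to be tested in kidney.

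Renin is secreted by juxtaglomerular cells next to the macula densa when blood pressure or salt delivery falls, and it starts the cascade that makes angiotensin II and, through the adrenal cortex, aldosterone. Aldosterone binds the mineralocorticoid receptor (Nr3c2) in the distal nephron and raises sodium uptake through the epithelial sodium channel ENaC, whose α, β and γ subunits are encoded by Scnn1a, Scnn1b and Scnn1g. Upstream of that channel, salt is taken up by NKCC2 (Slc12a1) in the thick ascending limb and by NCC (Slc12a3) in the distal convoluted tubule. Water leaves the collecting duct through Aqp2 in the apical membrane, under the control of vasopressin, and through Aqp3 in the basolateral membrane.

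All mice were C57BL/6 and 12 weeks old per the labels, and male and C57BL/6J per the study's methods, and Nrf2-KO mice lacked the factor in every tissue. The methods give 12 weeks as the age before launch, so flight mice were older than the label says when dissected. FL_WT (wild type) and FL_KO (Nrf2-KO) mice lived on the International Space Station for about a month, and GC_WT and GC_KO mice were their ground controls. RNA of 3 kidneys per group was sequenced, from 12 mice, and the other 8 tissues served as reference without FL04, a flight mouse that bled in the intestine during the return. Flight mice were dissected after their return to the United States, the ground experiment was run later in Japan, and the kidney libraries of flight and ground mice carry separate ranges of library numbers, so flight, site, date and library series cannot be told apart. The flight samples were therefore taken after landing and not in orbit. The study kept Nrf2-KO mice judged to be without an intrahepatic shunt. For flight candidates this was read from their sleep under ketamine and xylazine, and no such step is described for WT mice. Genotype and this selection cannot be told apart. In whole kidney, fewer cells of a type and less RNA per cell cannot be told apart.

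The kidney libraries held 13.8 to 14.7 M expected counts, with a median of 14.3 M. Nfe2l2, the gene of Nrf2, had levels of 48.6 to 70.9 TPM (transcripts scaled to a fixed sum per library) in the 6 WT kidneys and 22.0 to 34.6 TPM in the 6 Nrf2-KO kidneys, without overlap. Its values cover the whole gene, so part of it was still read in Nrf2-KO mice. Umod, Slc12a3, Slc12a1 and Aqp2, which define tubule segments of the kidney, stood at 112 TPM or more in every kidney. The adipocyte markers Adipoq, Plin1, Cidec and Ucp1 summed to 12.2 TPM in GC02 and 12.6 TPM in FL02, both Nrf2-KO mice, and to at most 2.83 TPM in the other 10 kidneys, so counts that rest on GC02 and FL02 are also given without them. The adrenal markers Cyp11b1 and Cyp11b2 were listed at 0 in all 12 kidneys.

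Promoter letters were read for the members because Nrf2 binds antioxidant response elements, whose core is TGACNNNGC on either strand. RefSeq (GRCm38.p6) gave a window of 300 bases, from 250 bases before to 50 after the start, for 9 of the 10 members, all but Scnn1a. The core was found in the window of Scnn1b and in none of the other 8, while 12.4% of 32851 promoter windows held it. The TATA box letters TATAAA were found for Ren1, Aqp3 and Slc12a3, against 13.6% of all windows. The 30 bases around these letters are shown for Ren1 and Scnn1b, the members that passed the test between genotypes, with the matched letters in capitals.
Ren1, chr1:133350633-133350662, plus strand: atacatggtgtgTATAAAagaaggctcagg
Scnn1b, chr7:121865052-121865081, plus strand: gctctacaggTGACCCAGCtccacagccac
The match of Ren1 begins at position -29, counted from 0 at the RefSeq start, and that of Scnn1b at position 24, downstream of the start and within the transcribed gene. The cyclic AMP element TGACGTCA, present in 1.79% of windows, was found in none of the 9, and the AGAACA hexamer that steroid receptors bind, present in 19% of windows, in that of Aqp2. Such matches are descriptions of letters and not binding sites.

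Ren1 (ENSMUSG00000070645.5, GRCm38 chr1:133350510-133360325, plus strand) had the largest log2 fold changes of the 10 genes, both with flight and between genotypes when these were averaged. In GC_WT kidneys its level was 32.1 TPM in GC06, 46.3 in GC07 and 34.9 in GC10. FL_WT kidneys had 88.1 TPM in FL05, 78.8 in FL08 and 43.7 in FL10. GC_KO kidneys had 81.3 TPM in GC02, 64.8 in GC11 and 70.5 in GC12, and FL_KO kidneys 96.4 in FL01, 121 in FL02 and 101 in FL11. Both genotype comparisons were therefore without overlap, on the ground and in flight, and so was flight in Nrf2-KO mice. Among WT mice FL10 lay within the range of the ground kidneys.

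The group means of Ren1 were 37.8 ± 7.53 TPM in GC_WT, 70.2 ± 23.4 in FL_WT, 72.2 ± 8.37 in GC_KO and 106 ± 13.2 in FL_KO (SD, n = 3 each). FL_WT and GC_KO, the neighbours in the middle of this order, overlapped. Averaged over flight and ground, Ren1 was higher in Nrf2-KO than in WT kidneys by 0.75 on the log2 scale (SE 0.153, 95% interval 0.42 to 1.08), a fold of 1.68, with an adjusted p of 0.012 by the edgeR quasi-likelihood test over 15114 genes. On the ground alone GC_KO exceeded GC_WT by 0.92 (SE 0.219, adjusted p = 0.0589 by edgeR), and in flight FL_KO exceeded FL_WT by 0.58 (SE 0.213, adjusted p = 0.245), so neither passed alone.

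Flight gave Ren1 differences that did not pass at an adjusted p under 0.05. They were 0.83 on the log2 scale in WT mice (SE 0.219, adjusted p = 0.324 by edgeR) and 0.49 in Nrf2-KO mice (SE 0.213, adjusted p = 0.364). Averaged over both genotypes it was 0.66 (SE 0.153, 95% interval 0.33 to 0.99), with an adjusted p of 0.0563. The interaction, which tests whether flight acted differently in the genotypes, was -0.34 (95% interval -0.997 to 0.32, unadjusted p = 0.285 by edgeR). Equal responses and responses that differ by nearly a log2 unit both lie within that interval.

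The genotype average of Ren1 passed with any single kidney left out (adjusted p of 0.00478 to 0.0412 by edgeR). Which of the other comparisons passed for Ren1 depended on the test and on single kidneys. DESeq2 gave an adjusted p of 0.000975 for flight averaged over genotypes, 0.0239 for FL_WT against GC_WT and 0.000929 for GC_KO against GC_WT, while limma on log2(TPM + 1) gave 0.0495 for the first of these. Without FL10, edgeR called Ren1 in the same 3 comparisons, with a log2 fold change of 1.08 for FL_WT against GC_WT. Without GC02 and FL02, the kidneys with adipocyte transcripts, the genotype difference was 0.65 and its adjusted p by edgeR 0.0642, and 0 of the 10 members were then called.

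**Figure D1:**
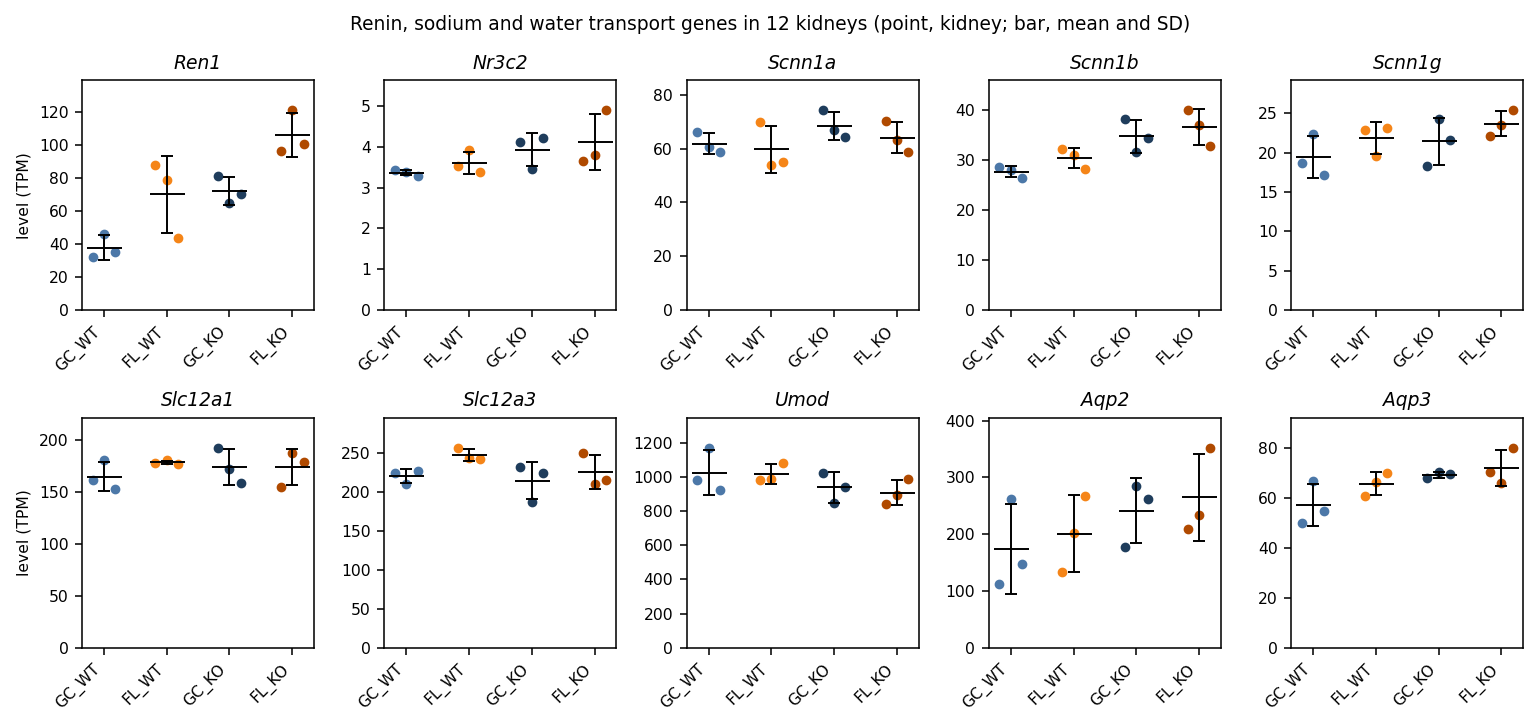
Levels in TPM (vertical axes, from 0) of the 10 genes in 12 kidneys, with a point per kidney, a horizontal bar for the group mean and whiskers for 1 SD. Ren1 runs from 32.1 TPM in a GC_WT kidney to 121 TPM in an FL_KO kidney, while Slc12a1 stays between 152 and 192 TPM.

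Called genes are those whose p, adjusted over all genes tested, was under 0.05. Between Nrf2-KO and WT kidneys, averaged over flight and ground, edgeR called 2 of the 10 members, Ren1 and Scnn1b, both higher, where 4.59% of all 15114 genes were called and 1.61% were called higher. Nr3c2, Aqp3 and Umod also had an unadjusted p under 0.05 in that comparison, 5 of 10 members in all, where 18.3% of all genes did. The median log2 fold change of the 10 members was 0.15 between genotypes and 0.044 with flight, against 0.0088 and 0.0040 over all genes tested. For flight averaged over genotypes, edgeR called 0 members, with 1 (Ren1) at an unadjusted p under 0.05 (14.9% of all genes), while DESeq2 and limma each called 1, and the share of all genes called by edgeR was 1.41%. Of those, edgeR put 76 higher and 137 lower in flight, while limma, which differed in test, gene set and scaling together, put 180 higher and 47 lower.

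The separate comparisons gave no call of a member by edgeR. In FL_WT against GC_WT edgeR called 0 members, with 1 at an unadjusted p under 0.05 (6.64% of all genes), DESeq2 called 1 and limma 0, and the share of all genes was 0.119%. In FL_KO against GC_KO it called 0, with 1 at an unadjusted p under 0.05 (12.8% of all genes) and 0 by DESeq2 and limma, against 0.159% of all genes. In GC_KO against GC_WT it called 0, with 3 at an unadjusted p under 0.05 (Ren1, Scnn1b and Aqp3, where 10.9% of all genes did so), DESeq2 called 1 and limma 0, against 1.61%. In FL_KO against FL_WT it called 0, with 2 at an unadjusted p under 0.05 (13.2% of all genes) and 0 by DESeq2 and limma, against 1.85%. The interaction gave 0 members by edgeR, DESeq2 and limma, with 0 at an unadjusted p under 0.05 (3.38% of all genes) and 0% of all genes called by edgeR.

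Groups without overlap in TPM were counted as well. Ren1, Scnn1b, Aqp3 and Nr3c2 were higher in every GC_KO than in every GC_WT kidney, 4 of 10 members where 8.84% of all genes were so. Ren1 and Scnn1b were higher in every FL_KO than in every FL_WT kidney, where 9.51% of all genes were so. In CPM, counts scaled by library size and TMM as for edgeR, Scnn1b overlapped there (50.9 in FL11, 54.7 in FL05). With flight, Slc12a3 was the member without overlap in TPM in WT mice (13.5% of all genes higher) and Ren1 in Nrf2-KO mice (13.1%). In CPM scaled by TMM, Slc12a3 overlapped in WT mice, at 542.4 in FL08 and 543.5 in GC06. On the log2 TPM scale the median kidney gene moved with flight by 0.060 in WT and 0.068 in Nrf2-KO mice.

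**Figure D2:**
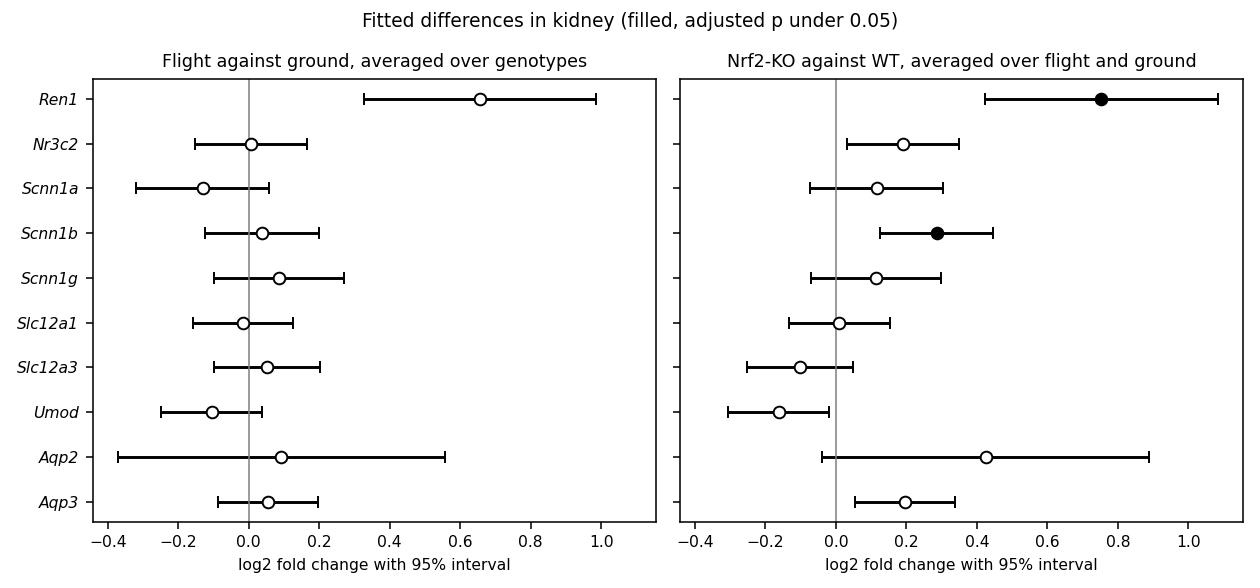
Log2 fold changes by edgeR (horizontal axes) with 95% intervals for the 10 genes, for flight averaged over genotypes at the left and for Nrf2-KO against WT averaged over flight and ground at the right; filled points had an adjusted p under 0.05. Ren1 at 0.75 and Scnn1b at 0.29 are the filled points at the right, and the interval of Ren1 at the left, 0.33 to 0.99, lies above 0 although its point is open.

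Scnn1b (ENSMUSG00000030873.9, chr7:121865038-121918514, plus strand), the β subunit of ENaC, was the second gene that passed. Its level was 28.6, 28.1 and 26.5 TPM in GC06, GC07 and GC10, and 32.1, 31.1 and 28.3 TPM in FL05, FL08 and FL10. In Nrf2-KO mice it was 38.2, 31.7 and 34.4 TPM in GC02, GC11 and GC12, and 40.0, 37.0 and 32.8 TPM in FL01, FL02 and FL11. In TPM, Nrf2-KO kidneys lay above WT kidneys in both conditions. The lowest FL_KO kidney (32.8 TPM) was just above the highest FL_WT kidney (32.1 TPM). In CPM scaled by TMM, the flight groups overlapped, at 50.9 in FL11 (FL_KO) and 54.7 in FL05 (FL_WT). The ground groups stayed apart in CPM, with GC11 (GC_KO) at 56.2 and GC06 (GC_WT) at 50.6. Averaged over flight and ground, the log2 fold change was 0.29 (SE 0.0746, 95% interval 0.12 to 0.45, adjusted p = 0.048 by edgeR). This call was lost with RLE factors in place of TMM (adjusted p = 0.0507), when any of 10 of the 12 kidneys was left out (adjusted p of 0.0606 to 0.128), and without GC02 and FL02 (log2 fold change 0.24, adjusted p = 0.152).

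The other subunits were at the same order of abundance per length. Scnn1a, which encodes the α subunit (chr6:125320659-125344943), had 61.8 ± 3.93 TPM in GC_WT, 59.7 ± 8.82 in FL_WT, 68.4 ± 5.24 in GC_KO and 64.1 ± 5.82 in FL_KO (SD, n = 3). Scnn1g, the γ subunit, lies on the same chromosome as Scnn1b (chr7:121734479-121768475) and had 19.4 ± 2.68, 21.9 ± 2.01, 21.4 ± 2.94 and 23.7 ± 1.62 TPM in the same order. Their log2 fold changes between genotypes were 0.12 for Scnn1a (95% interval -0.074 to 0.30) and 0.11 for Scnn1g (-0.071 to 0.30), with adjusted p of 0.530 and 0.523 by edgeR. With flight they were -0.13 for Scnn1a (-0.32 to 0.058) and 0.085 for Scnn1g (-0.099 to 0.27). All these intervals include 0, and those between genotypes also include the 0.29 of Scnn1b, so a genotype difference particular to Scnn1b is not shown.

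Nr3c2 (chr8:76899442-77245012), the mineralocorticoid receptor, was the least abundant member in kidney, at 3.29 to 4.89 TPM or 182 to 265 expected counts. Its level was 3.36 ± 0.0666 TPM in GC_WT, 3.60 ± 0.279 in FL_WT, 3.93 ± 0.406 in GC_KO and 4.11 ± 0.676 in FL_KO (SD, n = 3). Between genotypes Nr3c2 gave 0.19 on the log2 scale (SE 0.0731, unadjusted p = 0.0219, adjusted p = 0.18 by edgeR) and 0.0061 with flight (95% interval -0.15 to 0.16).

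Of 8 other genes of mineralocorticoid and glucocorticoid response, Hsd11b2 was called between genotypes. It encodes the enzyme that inactivates corticosterone in aldosterone target cells, so that the receptor is left to aldosterone. Its level was 136, 122 and 127 TPM in GC_WT, 169, 148 and 128 in FL_WT, 170, 190 and 201 in GC_KO and 226, 193 and 193 in FL_KO. Every Nrf2-KO kidney was above every WT kidney, the closest pair being GC02 (170 TPM) and FL05 (169 TPM). Hsd11b2 was higher by 0.49 on the log2 scale averaged over flight and ground (SE 0.0846, adjusted p = 0.00414 by edgeR) and by 0.53 for GC_KO against GC_WT (adjusted p = 0.047). The list's median log2 fold change between genotypes was 0.43, against 0.0088 over all genes tested, but it was -0.015 for GC_KO against GC_WT and 0.65 for FL_KO against FL_WT. Summed over the list, GC02, FL01 and FL02 had 597, 758 and 680 TPM, and the other 3 Nrf2-KO kidneys 363 to 416 TPM. With flight edgeR called none of the 8 (0, and 0 at an unadjusted p under 0.05), at a median of 0.16.

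Slc12a1, Slc12a3 and Umod, the genes of the thick ascending limb and distal convoluted tubule, were not called in any of the 7 comparisons by edgeR, DESeq2 or limma. Slc12a1 (chr2:125152505-125230002) had 164 ± 14.2 TPM in GC_WT, 178 ± 1.61 in FL_WT, 174 ± 17.3 in GC_KO and 174 ± 17.0 in FL_KO (SD, n = 3). Its log2 fold change was -0.016 with flight (95% interval -0.16 to 0.13) and 0.0096 between genotypes (-0.13 to 0.15) by edgeR.

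Slc12a3 (chr8:94329201-94366214) had 225, 210 and 227 TPM in GC_WT and 257, 244 and 242 TPM in FL_WT, without overlap in TPM. In CPM scaled by TMM these WT groups overlapped, at 542.4 in FL08 and 543.5 in GC06. In Nrf2-KO mice it had 188 to 232 TPM in GC_KO against 211 to 250 in FL_KO, with overlap. The fitted log2 fold change was 0.097 in WT mice (95% interval -0.12 to 0.31, adjusted p = 0.95 by edgeR) and 0.0053 in Nrf2-KO mice (-0.21 to 0.22). Umod (chr7:119462711-119479282, minus strand) encodes uromodulin, the most abundant protein of normal urine, which is made in the thick ascending limb. It was the most abundant member at 846 to 1174 TPM. Its log2 fold change was -0.16 between genotypes (SE 0.0659, unadjusted p = 0.0287, adjusted p = 0.207 by edgeR) and -0.11 with flight (95% interval -0.25 to 0.037).

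Genes that control these transporters or work beside them gave no calls. Of 7 genes of the WNK kinase pathway, which switches Slc12a3 and Slc12a1 on by phosphorylation, edgeR called 0 with flight, with 1 (Kcnj10, log2 fold change -0.14) at an unadjusted p under 0.05, and 0 between genotypes, with 1 (Cul3, -0.14). Of 14 further sodium, potassium and chloride transport genes it called 0 with flight, with 3 at an unadjusted p under 0.05, and 0 between genotypes, with 3. Those between genotypes were all above 0 and included Slc4a8, a sodium-driven chloride and bicarbonate exchanger of intercalated cells (0.41, adjusted p = 0.0602 by edgeR), and Slc26a4 (0.24, adjusted p = 0.0928). Those with flight included Fxyd2 (-0.21, adjusted p = 0.213 by edgeR) and Slc5a2 (-0.28, adjusted p = 0.0892).

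Aqp2 (chr15:99579055-99584547) spread widely between kidneys of the same group. Its level was 112, 262 and 147 TPM in GC06, GC07 and GC10, and 134, 202 and 268 TPM in FL05, FL08 and FL10. In Nrf2-KO mice it was 177, 285 and 262 TPM in GC02, GC11 and GC12, and 209, 235 and 352 TPM in FL01, FL02 and FL11. The groups overlapped in each comparison. On the log2 scale Aqp2 gave 0.093 with flight (95% interval -0.37 to 0.56, adjusted p = 0.882 by edgeR) and 0.43 between genotypes (-0.039 to 0.89, adjusted p = 0.32). No difference and a large difference between genotypes both lie within that interval.

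Aqp3 (chr4:41092722-41098183, minus strand), the basolateral channel of the same cells, varied less. It stood at 49.99, 66.5 and 54.6 TPM in GC_WT, 60.6, 66.0 and 69.9 in FL_WT, 67.7, 70.1 and 69.6 in GC_KO and 70.1, 65.9 and 80.0 in FL_KO. Each GC_KO kidney was above each GC_WT kidney, while the flight groups overlapped. Between genotypes Aqp3 gave 0.20 on the log2 scale (SE 0.0656, unadjusted p = 0.0107, adjusted p = 0.124 by edgeR) and passed without GC07 (0.26, adjusted p = 0.0221). With flight it was 0.056 (95% interval -0.086 to 0.20).

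Among 10 other genes of water and urea transport, Aqp4 was called with flight. Aqp4 is a further basolateral water channel of the collecting duct. It had 5.38, 8.73 and 4.53 TPM in GC06, GC07 and GC10, 15.7, 18.2 and 14.0 TPM in FL05, FL08 and FL10, 9.77, 8.71 and 10.9 TPM in GC02, GC11 and GC12 and 16.9, 17.9 and 17.3 TPM in FL01, FL02 and FL11. All 6 flight kidneys were above all 6 ground kidneys. Aqp4 was higher by 1.33 on the log2 scale in WT mice (SE 0.163, adjusted p = 0.00509 by edgeR), and by 1.05 averaged over genotypes (SE 0.114, adjusted p = 0.00122), while the 0.76 of Nrf2-KO mice did not pass (SE 0.158, adjusted p = 0.0915). The interaction was -0.56 (unadjusted p = 0.0276 by edgeR, not called after adjustment), so it is not shown that the genotypes differed in their response. Avpr2, the vasopressin receptor of the collecting duct, gave 0.36 on the log2 scale between genotypes (adjusted p = 0.124 by edgeR) and Slc14a2, the urea transporter, 0.58 (adjusted p = 0.128). Between genotypes edgeR called 0 of the 10, with 5 at an unadjusted p under 0.05.

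**Figure D3:**
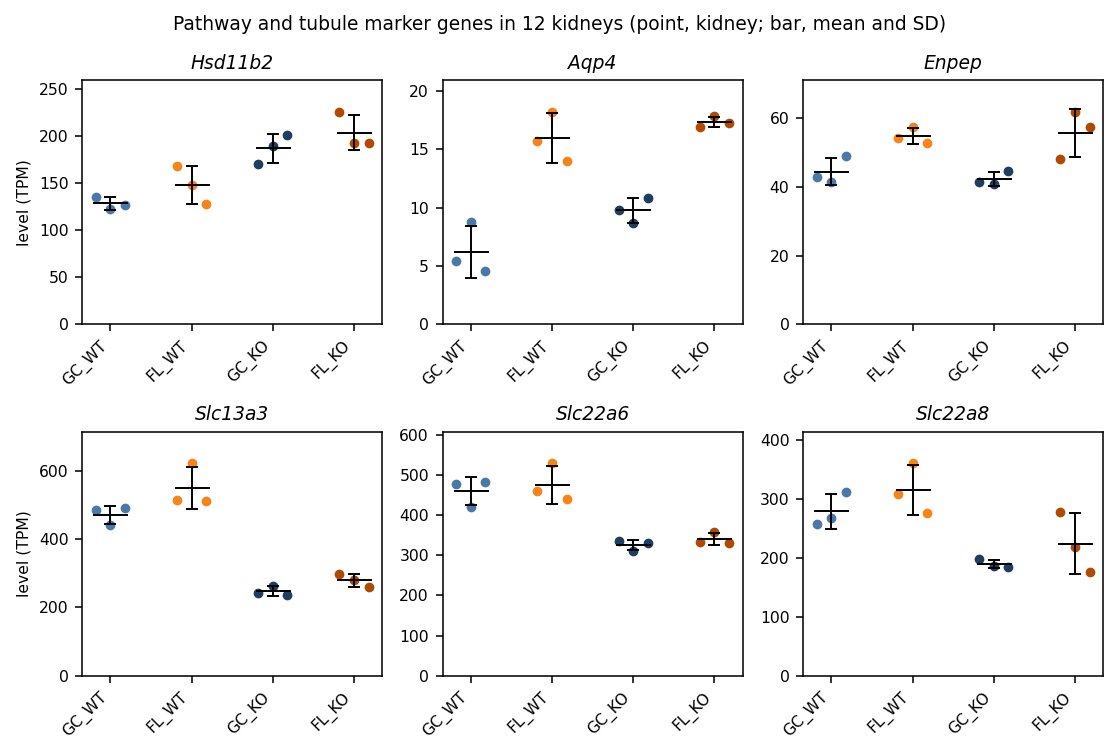
Levels in TPM (vertical axes, from 0) of Hsd11b2, Aqp4 and Enpep from the pathway lists and of the proximal tubule markers Slc13a3, Slc22a6 and Slc22a8, with a point per kidney, the group mean and 1 SD. Aqp4 separates flight (14.0 to 18.2 TPM) from ground (4.53 to 10.9 TPM), and Hsd11b2 and Slc13a3 separate Nrf2-KO from WT kidneys.

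The rest of the renin-angiotensin system was read beside Ren1. Of 11 genes, 9 were tested, and Enpep was called with flight. Enpep encodes aminopeptidase A, which cleaves angiotensin II, and had 41.5 to 49.0 TPM in GC_WT, 52.8 to 57.5 in FL_WT, 40.8 to 44.6 in GC_KO and 48.2 to 61.8 in FL_KO, which is higher by 0.28 on the log2 scale averaged over genotypes (SE 0.0619, adjusted p = 0.0448 by edgeR). Agt, the substrate of renin, had 42.5 ± 1.16 TPM in GC_WT, 62.0 ± 8.20 in FL_WT, 54.4 ± 7.36 in GC_KO and 72.1 ± 9.69 in FL_KO (SD, n = 3). Its log2 fold changes, 0.40 with flight (adjusted p = 0.0619) and 0.28 between genotypes (adjusted p = 0.138), did not pass. Ace, which makes angiotensin II, gave -0.33 with flight (adjusted p = 0.0924) and -0.27 between genotypes (adjusted p = 0.108). The median of the list was 0.10 with flight and -0.044 between genotypes, where edgeR called 0 genes, with 3 at an unadjusted p under 0.05.

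Genes that signal to renin cells at the macula densa gave 0 calls by edgeR, with 1 of 6 (Akr1b7, a gene expressed with renin in juxtaglomerular cells, log2 fold change 0.56) at an unadjusted p under 0.05 with flight and 0 between genotypes. Apart from Ptges, which averaged 9.31 to 12.2 TPM in the 4 groups, their levels were low. Ptgs2, which makes the prostaglandins that release renin, averaged 0.170 to 0.457 TPM and Nos1 0.187 to 0.237 TPM in the 4 groups, where changes were not detectable at this depth. All 5 genes of osmolyte accumulation, which cells of the inner medulla use against high salt, were above 0 with flight averaged over genotypes (median log2 fold change 0.27, against 0.0040 over all genes), as were 7740 of all 15114 genes. edgeR called 0 of the 5, with 0 at an unadjusted p under 0.05. Taken apart, 3 of the 5 were above 0 in WT mice and 4 in Nrf2-KO mice.

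Marker lists of kidney cell types were read beside the members. The summed level of 6 principal cell markers was 173 to 201 TPM in WT and 198 to 233 TPM in Nrf2-KO kidneys, and that of 6 intercalated cell markers 160 to 179 TPM in WT and 186 to 234 TPM in Nrf2-KO kidneys. edgeR called 0 of these 12 genes between genotypes, with 3 and 6 at an unadjusted p under 0.05, where 18.3% of all genes were, all above 0, and medians of 0.21 and 0.25. The 5 podocyte markers were all below 0 between genotypes (median -0.18), with 0 called by edgeR and 3 at an unadjusted p under 0.05. The 7 proximal tubule markers summed to 5943 to 6636 TPM in WT and 4991 to 5851 TPM in Nrf2-KO kidneys. Of these, 3 were called lower between genotypes, namely Slc13a3 (log2 fold change -0.97, adjusted p = 2.55e-06 by edgeR), Slc22a6 (-0.50, adjusted p = 0.000264) and Slc22a8 (-0.53, adjusted p = 0.0162), which take up dicarboxylates and organic anions. These lists went along with the genotype difference of Ren1, Scnn1b and Hsd11b2, and their part in it was not tested.

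With flight, the 5 podocyte markers summed to 71.9 to 98.9 TPM on the ground and 90.6 to 119 TPM in flight, and the 6 vascular and stromal markers to 79.9 to 95.2 and 92.3 to 105 TPM. edgeR called 0 of those 11, with 3 and 3 of them, all above 0, at an unadjusted p under 0.05 (14.9% of all genes). The 5 erythroid markers summed to 944 to 1308 TPM on the ground and 545 to 994 TPM in flight, and 4 of them were called lower in flight, Alas2 (log2 fold change -0.93), Hba-a1 (-0.73), Hbb-bs (-0.75) and Hbb-bt (-1.11), where reads of the near-identical globin copies may be split between genes. 1 immune marker, Cd74, was called lower between genotypes (-0.30, adjusted p = 0.0328). Markers of the thick ascending limb (393 to 544 TPM) and of the distal convoluted tubule (2916 to 4064 TPM) gave 0 calls, with 2 each at an unadjusted p under 0.05 with flight and 0 between genotypes. The distal convoluted tubule sum was mostly that of 1 gene, Klk1, with group means of 2899 to 3626 TPM. Adipocyte and adrenal markers gave 0 calls in both averages, with the 3 tested adipocyte markers at an unadjusted p under 0.05 between genotypes (median log2 fold change 4.43) and their highest sums in GC02 and FL02. The part of these sums in the flight difference of Ren1 and Aqp4 was not tested.

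Within each group the kidneys kept an order that was noticed after the values had been seen. The kidney with the highest Per1, a clock gene that corticosteroids induce, also had the highest Scnn1a and the lowest Aqp2 of its group in 4 of 4 groups. Of the 15114 genes tested, 333 (2.2%, Per1 among them) were highest and 805 (5.33%) lowest in the same 4 kidneys, so many genes shared this order. The hour of dissection of each kidney is not given in the sources used here. These kidneys were GC06, FL05, GC02 and FL01, with Per1 at 13.6, 21.4, 31.5 and 43.3 TPM and Scnn1a at 66.3, 69.9, 74.3 and 70.3 TPM. The kidney with the highest Aqp2 had the highest Slc6a12, the betaine carrier of osmolyte accumulation, again in 4 of 4 groups, in GC07, FL10, GC11 and FL11, as did 233 genes (1.54%, Aqp2 among them). Slc6a12 stood at 0.27 to 2.90 TPM, so this rests on low levels. FL02, the other kidney with Per1 above 30 TPM, was close to FL01 (42.9 TPM). Without GC02, FL01 and FL02, which leaves FL_KO with 1 kidney whose spread is taken from the other groups, the genotype difference of Ren1 was 0.63 (adjusted p = 0.101 by edgeR) and that of Scnn1b 0.13 (adjusted p = 0.369).

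**Figure D4:**
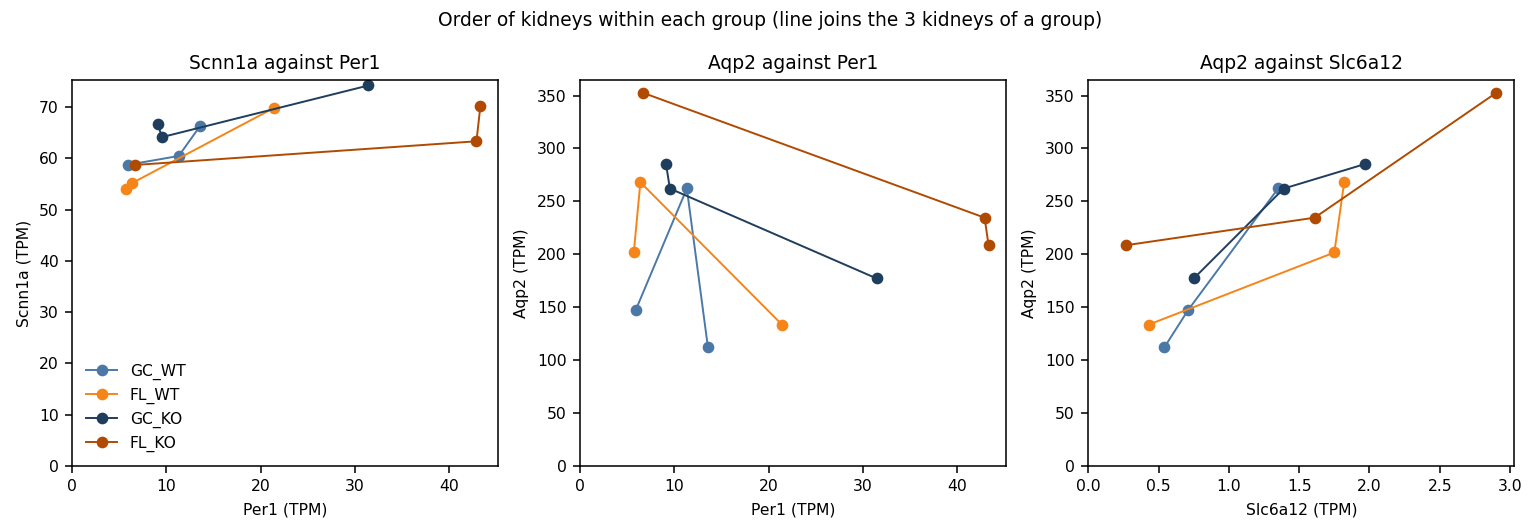
Levels in TPM of Scnn1a and Aqp2 (vertical axes) against Per1 or Slc6a12 (horizontal axes), with a point per kidney and a line joining the 3 kidneys of a group. The rightmost point of each line for Per1 is the highest for Scnn1a and the lowest for Aqp2, and the rightmost point for Slc6a12 is the highest for Aqp2.

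The genes whose kidney pattern was most like that of each member were found by Pearson's r of log2(CPM + 1) over the 12 kidneys among 15114 genes, with groups pooled and no test. For Ren1 they were Actn1 (0.94), Misp (0.91) and Baz2b (0.89), and for Scnn1b Rap1gap (0.96), Ucp2 (0.94) and Atp6v1b1 (0.94), the last an intercalated cell marker. For Scnn1a they were Nudt6 (0.96), Cyp2j9 (0.93) and Prr15l (0.93), for Scnn1g Gm12355 (0.86), Mfsd10 (0.85) and Tcaf1 (0.85), and for Nr3c2 Map3k21 (0.90), Pgam5 (0.88) and Efcab7 (0.87). Aqp2 was among the 3 nearest genes of Aqp3 (0.88), beside Dcbld2 (0.88) and L1cam (0.87), while Slc7a1 (0.91), Rbm28 (0.90) and Lmo2 (0.90) were nearest to Aqp2. For Slc12a3 they were Parl (0.92), Cpt1c (0.91) and Med25 (0.88), for Slc12a1 4732471J01Rik (0.89), Rab35 (0.82) and Rps6ka5 (0.82), and for Umod Fbxo4 (0.87), Atp6v1h (0.86) and Psmb5 (0.85). Between members, r was highest for Aqp2 and Aqp3, at 0.73 for Ren1 and Scnn1b, and lowest for Aqp2 and Slc12a3 at -0.71. These values share groups, libraries and composition.

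Outside the kidney some members were near 0 and others were not. Ren1, Aqp2, Slc12a3 and Umod reached at most 1.26, 1.86, 0.62 and 1.74 TPM in any sample of the other 8 tissues, against kidney means of 71.6, 220.4, 227 and 975 TPM. Slc12a1 had 3.72 ± 1.22 TPM in mandibular bone (SD, n = 11), and at most 0.39 TPM elsewhere. Nr3c2 was the member with a higher mean elsewhere than in kidney (3.75 TPM), with 16.5 ± 2.10 TPM in cerebrum (SD, n = 23) and 11.3 ± 2.82 TPM in temporal bone (SD, n = 23). Scnn1a had 14.8 ± 2.90 TPM in liver and 11.7 ± 4.21 in temporal bone (SD, n = 23 each), Scnn1b 8.23 ± 1.90 in mandibular bone (SD, n = 11), and Aqp3 12.4 ± 6.48 in mandibular bone (SD, n = 11) and 7.61 ± 7.88 in temporal bone (SD, n = 23). Thymus RNA was freed of ribosomal RNA and not selected for poly(A), so its levels are set beside the other tissues as a description.

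**Figure D5:**
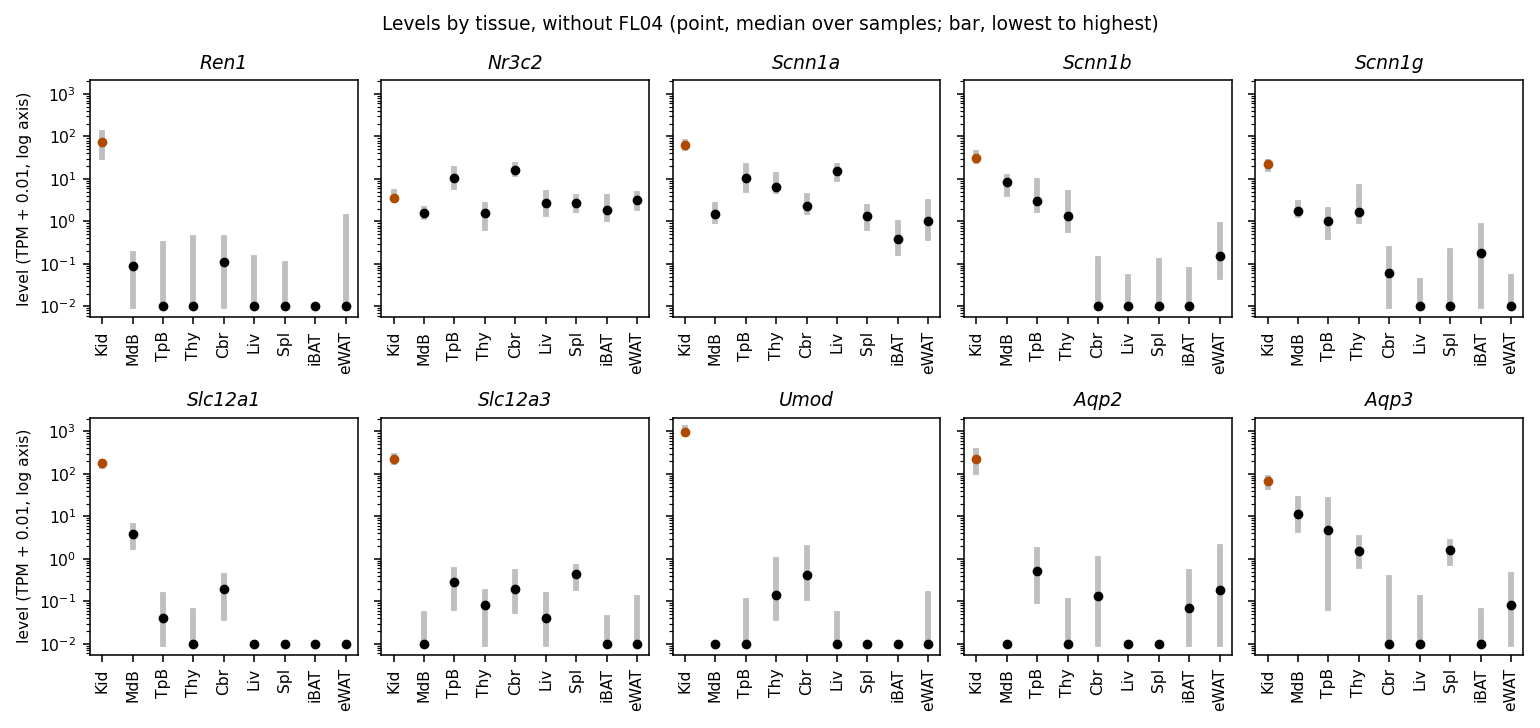
Levels of the 10 genes in 9 tissues as TPM + 0.01 on a log axis, without FL04, with a point for the median over samples and a bar from the lowest to the highest sample; Kid is kidney, MdB and TpB mandibular and temporal bone, Thy thymus, Cbr cerebrum, Liv liver, Spl spleen, iBAT and eWAT brown and white adipose tissue. Kidney medians (coloured) are the highest for 9 genes, and for Nr3c2 the highest median is in cerebrum.

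In these 8 tissues 30 pairs of member and tissue had enough counts for a test. For FL_WT against GC_WT edgeR called 5 of them, for FL_KO against GC_KO 3 and for flight averaged over genotypes 6, all higher in flight, in thymus and brown adipose tissue. Those tissues changed broadly, since 22.8%, 38.2% and 48.7% of all genes tested in thymus and 19.2%, 33.5% and 44% in brown adipose tissue were called in the same 3 comparisons. Between genotypes and for the interaction edgeR called 0 pairs, and DESeq2 called 1 pair (Nr3c2 in white adipose tissue) for the genotype difference averaged over flight and ground.

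In thymus, 5 members were higher with flight averaged over genotypes. Nr3c2 had 0.89 to 1.47 TPM in GC_WT (median 1.18, n = 6), 1.75 to 2.37 in FL_WT (2.12, n = 6), 0.70 to 1.53 in GC_KO (1.01, n = 6) and 1.92 to 2.20 in FL_KO (2.08, n = 5). Every flight mouse was above every ground mouse, by 0.66 on the log2 scale (SE 0.0821, adjusted p = 5.96e-07 by edgeR). Scnn1a had 5.35 to 6.24 (median 6.05), 7.33 to 12.2 (8.49), 5.25 to 6.61 (5.48) and 7.29 to 9.97 TPM (8.63) in the same order, again without overlap between flight and ground, and was higher by 0.36 (SE 0.0599, adjusted p = 3.19e-05). Scnn1b changed by 0.95 (SE 0.197, adjusted p = 0.000315), Scnn1g by 0.80 (SE 0.215, adjusted p = 0.00348) and Aqp3 by 0.63 (SE 0.125, adjusted p = 0.00021), each at levels of at most 6.36 TPM. Among FL_WT mice, Scnn1g was 1.52 to 1.66 TPM in FL07, FL08 and FL10, within the GC_WT range of 0.99 to 1.94 TPM. In FL03, FL05 and FL06 it was 4.72 to 6.36 TPM. Scnn1b also overlapped in WT mice (0.93 to 4.58 TPM in FL_WT, 0.62 to 1.32 in GC_WT). So did Aqp3 (1.39 to 2.62 and 0.88 to 1.49 TPM). In Nrf2-KO mice Scnn1g overlapped, while Scnn1b and Aqp3 did not. On the TPM scale the median gene of the thymus moved by 0.17 with flight, so TPM values there overstate the change against the median gene, while the edgeR values are relative to it.

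Scnn1g in brown adipose tissue was listed at 0 in 2 of 6 GC_WT and 4 of 6 GC_KO mice and stood at 0.14 to 0.79 TPM in all 11 flight mice, from 28 expected counts at the most. In WT mice the groups did not overlap, with at most 0.18 TPM in GC_WT and at least 0.30 in FL_WT. In Nrf2-KO mice they did, since GC04 had 0.44 TPM and FL_KO mice 0.14 to 0.62 TPM. On the log2 TPM scale the median gene of this tissue moved by 0.37 with flight. edgeR called it for FL_WT against GC_WT (adjusted p = 0.0431) and for flight averaged over genotypes (adjusted p = 0.0187), at a mean level of 1.06% of that in kidney. For FL_KO against GC_KO it gave 1.11 (adjusted p = 0.313 by edgeR), or 3.14 (adjusted p = 0.0246) in a fit blocked by mouse number. GC04 has no partner without FL04 and drops out of the blocked fit. In kidney, the 5 genes called in thymus (Nr3c2, Scnn1a, Scnn1b, Scnn1g and Aqp3) had flight log2 fold changes between -0.13 and 0.085 with adjusted p of 0.519 or more by edgeR, and the difference between the tissues was not tested.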

How the data were processed

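RNA sequencing libraries of mouse kidney (12) and 8 other tissues were analysed, 192 samples in all, grouped by the labels. The authors mapped reads to mm10 with STAR 2.6.1 and quantified GENCODE vM20 genes with RSEM 1.3.1. The authors deposited RSEM's expected counts without normalization, and beside them RSEM's TPM. FPKM, also deposited, was not used. Libraries were strand-specific, and the strand setting of counting is not given in the sources used here; exons of Nr3c2 and Umod overlap antisense genes.

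Expected counts were rounded, filtered with filterByExpr, scaled by TMM and tested per tissue in 1 fit of the 4 groups with the quasi-likelihood test of edgeR 4.0.16 (R 4.3.3), without FL04. Adjustment was by Benjamini-Hochberg over all genes of a tissue, and genes under 0.05 were called. Averages weight both genotypes, or flight and ground, equally. Intervals of 95% use the fitted SE. The study's own method, DESeq2 (1.42.0), was an alternative, as were limma 3.58.1 on log2(TPM + 1) and log2(TPM + 0.1) of genes with a mean of at least 5 TPM in a group, RLE factors, no filter, only the groups of the contrast, FL04 included, the mouse number as a block, and single mice left out. Outside the kidney, single mice were left out only from FL_KO and, in mandibular bone, from every group. A further 2 fits, without GC02 and FL02 and without the 3 kidneys with Per1 above 30 TPM, were chosen after seeing the data.

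The genes named were all members, list genes called in kidney (otherwise the 3 with the smallest p), the 3 genes most like each member, Nfe2l2, and members called elsewhere; further list genes at an unadjusted p under 0.05 were chosen after their values were seen. Some list genes are counted but not reported here by name. The members and the 18 lists of 120 genes were chosen with earlier results of these data known. Nothing in the labels says that kidneys of a group came from separate litters or days, so p-values measure the spread between these mice. The test was checked on simulated kidney counts with known flight changes. It recovered 45% of 1.5-fold changes in WT mice, 38% in Nrf2-KO mice and 69% averaged over genotypes. False calls were 9, 1 and 10 genes. Genotype differences were not simulated. Positions are from GENCODE vM21 on GRCm38 and promoter letters from RefSeq.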

Additional observations from a re-analysis of the deposited data

Results flagged for a closer look

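In kidney, groups of 3 mice are too small for a test of far values, and none of the 10 genes moved in opposite directions without overlap in the 2 genotypes or in flight and ground. In thymus and brown adipose tissue, 24 groups of called members were tested with Dixon's limit, which chance passes in about 1 of 20 groups, and 3 lay beyond it. In thymus, GC06 had the lowest Scnn1a of GC_WT (5.35 TPM, the others 6.01 to 6.24) and the highest Scnn1g (1.94 TPM, the others 0.99 to 1.31). In brown adipose tissue, GC04 had 0.44 TPM of Scnn1g, where the other GC_KO mice had 0 to 0.11. The cause was not tested.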

How the results depend on the processing

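Members called in kidney changed as follows. For FL_WT against GC_WT, 0 became 1 with DESeq2 and with no filter on low counts. For flight averaged over genotypes, 0 became 1 with DESeq2, limma on log2(TPM + 1), limma on log2(TPM + 0.1) and no filter. For GC_KO against GC_WT, 0 became 1 with DESeq2, no filter and only the groups of the contrast. For the genotype average, 2 became 1 with RLE factors, and 0 without GC02 and FL02 or without GC02, FL01 and FL02. With single kidneys left out the counts were 0 to 1 for FL_WT against GC_WT, for flight averaged over genotypes and for GC_KO against GC_WT, 1 to 2 for the genotype average, and 0 in the other 3 comparisons. The gene that entered was Ren1, except without GC07, where Aqp3 entered for GC_KO against GC_WT and, beside Ren1, for the genotype average. Ren1 entered without FL10 in all 3 comparisons, without FL05 for GC_KO against GC_WT and without FL11 for flight averaged over genotypes, and Scnn1b left the genotype average without any of 10 kidneys. In the other tissues, limma tested fewer pairs and called 1 for FL_WT against GC_WT, 1 for FL_KO against GC_KO and 1 for flight averaged over genotypes, and DESeq2 called 1 for the genotype average. Single FL_KO mice, or single mandibular bone samples of the other groups, were left out there. The counts were then 4 to 5 pairs for FL_WT against GC_WT, 3 to 4 for FL_KO against GC_KO and 6 for the flight average. The genotype and interaction contrasts gave 0 pairs. No thymus or brown adipose sample of GC_WT, FL_WT or GC_KO was left out, so dependence of the called pairs on those mice was not tested.

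Over all kidney genes, edgeR called 18 for FL_WT against GC_WT, against 72 with DESeq2, 68 with no filter, 40 with only the groups of the contrast and 34 without GC02, FL01 and FL02. For FL_KO against GC_KO it called 24, against 190 with DESeq2, 175 with no filter, 7 with limma at either pseudocount, 1 with only the groups of the contrast and 4 without GC02 and FL02. For flight averaged over genotypes it called 213, against 440 with DESeq2, 395 with no filter, 108 without GC02 and FL02 and 75 without GC02, FL01 and FL02. For FL_KO against FL_WT it called 280, against 424 with DESeq2, 433 with no filter, 157 with only the groups of the contrast, 172 without GC02 and FL02, and 185 to 189 with limma. For the interaction it called 0, against 3 with DESeq2, 5 with no filter and 3 without GC02, FL01 and FL02. Single kidneys left out gave 5 to 22, 3 to 349, 44 to 509, 144 to 274, 153 to 473, 462 to 904 and 0 to 3 genes for FL_WT against GC_WT, FL_KO against GC_KO, the flight average, GC_KO against GC_WT (243 with all), FL_KO against FL_WT, the genotype average (694 with all) and the interaction.

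Mouse numbers recur between flight and ground but belong to separate animals, and the deviations of same-numbered mice from the group means gave r of 0.16 and 0.25 in the 2 pairs of Nrf2-KO kidneys and 0.037 in the pair of WT kidneys, so the kidneys were not taken as pairs. All 5 pairs of Nrf2-KO mice gave r above 0.1 in liver (0.32 to 0.48) and brown adipose tissue (0.12 to 0.35), while WT mice did so in 4 and 2 of 6 pairs. Mice of unlike number were not compared, so these r do not show that a block is needed. With the mouse number as a replicate block, a mouse whose number does not recur drops out of the flight estimate. In kidney that fit therefore rests on the 2 pairs of Nrf2-KO kidneys and the 1 pair of WT kidneys, too few to check the main fit. It called 0 members for FL_KO against GC_KO (56 genes in all), and reversed the sign of Nr3c2 (0.072), Scnn1b (-0.12) and Slc12a3 (-0.088). For flight averaged over genotypes, where WT mice give 1 pair, only log2 fold changes are given. Those that reversed were Scnn1b (-0.046), Slc12a1 (0.019), Slc12a3 (-0.036) and Umod (0.021). In the other tissues the blocked fit called 5, 4, 7 and 0 pairs for FL_WT, FL_KO, the flight average and the interaction. The added pairs were Scnn1g in brown adipose tissue for FL_KO against GC_KO (adjusted p = 0.0246 by edgeR, against 0.313 without the block) and Scnn1a in liver for the flight average (log2 fold change -0.22, adjusted p = 0.00718 by edgeR, against 0.306 without the block). FL04 was left out, so GC04 has no partner and drops out of the blocked fit in both tissues. GC04 held the highest ground value of Scnn1g in brown adipose tissue (0.44 TPM), and its part in that call was not tested. No paired analysis was possible for the genotype contrasts because WT and Nrf2-KO mice share no numbers.

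Other signs that reversed belonged to values near 0 that were not called, and the cause was not tested. Both limma fits gave 0.053 and 0.054 for Aqp3 in FL_KO against GC_KO and 0.058 and 0.058 for Slc12a1 with flight. Without GC02 and FL02, FL_KO against GC_KO gave 0.067 for Nr3c2, -0.042 for Scnn1g, -0.071 for Aqp2 and 0.012 for Aqp3, Slc12a1 gave -0.0017 for GC_KO against GC_WT and -0.063 for the genotype average, and the interaction gave 0.044 for Nr3c2 and 0.024 for Umod. Without GC02, FL01 and FL02, FL_KO against GC_KO gave 0.20 for Nr3c2, -0.17 for Scnn1b, -0.016 for Scnn1g, -0.091 for Slc12a3 and 0.035 for Aqp3. The same fit gave -0.052 for Scnn1b and 0.00063 for Slc12a1 with flight, -0.0021 for Slc12a1 in GC_KO against GC_WT, -0.13 for Scnn1a in FL_KO against FL_WT, -0.017 for Scnn1a and -0.047 for Slc12a1 for the genotype average, and 0.17 for Nr3c2, 0.066 for Aqp2 and 0.066 for Umod for the interaction.

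With single kidneys left out, FL_KO against GC_KO ranged from -0.16 to 0.21 for Aqp2, -0.056 to 0.030 for Aqp3, -0.11 to 0.035 for Nr3c2, -0.098 to 0.12 for Scnn1b, -0.033 to 0.19 for Scnn1g and -0.12 to 0.072 for Slc12a3. FL_WT against GC_WT ranged from -0.13 to 0.56 for Aqp2, -0.024 to 0.069 for Nr3c2, -0.014 to 0.11 for Slc12a1 and -0.16 to 0.019 for Umod. Flight averaged over genotypes ranged from -0.038 to 0.30 for Aqp2, -0.044 to 0.031 for Nr3c2, -0.015 to 0.091 for Scnn1b, -0.057 to 0.021 for Slc12a1 and -0.0075 to 0.084 for Slc12a3. GC_KO against GC_WT ranged from -0.0065 to 0.15 for Slc12a1 and -0.11 to 0.014 for Slc12a3, FL_KO against FL_WT from -0.021 to 0.24 for Scnn1a, and the genotype average from -0.028 to 0.049 for Slc12a1. The interaction ranged from -0.51 to 0.17 for Aqp2, -0.13 to 0.012 for Nr3c2, -0.17 to 0.094 for Scnn1a, -0.17 to 0.051 for Scnn1b, -0.15 to 0.090 for Scnn1g and -0.15 to 0.035 for Umod. Ren1 kept a positive log2 fold change under every alternative run for the flight and genotype comparisons, and between 0.54 and 0.78 with single kidneys left out for flight averaged over genotypes. The genotype difference of Aqp2 (0.43, SE 0.214) did not pass, and the smallest difference detectable for it with 3 kidneys per group was not computed.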

Other observations

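Corticosteroid-induced genes differed between kidneys of the same group. Sgk1, the kinase through which aldosterone keeps ENaC in the membrane, was at 173 TPM in GC02 against 42.4 and 39.7 TPM in GC11 and GC12, and at 224 and 168 TPM in FL01 and FL02 against 59.4 TPM in FL11. In WT mice Sgk1 was highest in GC07 (101 TPM) and FL05 (90.7 TPM), and at 33.6 to 46.7 TPM in the other 4. Zbtb16, a glucocorticoid-induced repressor, was at 7.82 TPM in GC02 and 13.0 and 12.9 TPM in FL01 and FL02, against 1.89 to 2.46 TPM in the other 3 Nrf2-KO kidneys, and at 8.03 and 7.11 TPM in GC06 and FL05 against 0.67 to 3.59 TPM in the other 4 WT kidneys. Tsc22d3 went the same way, with 96.4 to 103 TPM in GC02, FL01 and FL02 and 34.3 to 47.1 TPM in the other 3. edgeR called none of Per1, Sgk1, Zbtb16 and Tsc22d3 in the 7 comparisons (lowest adjusted p 0.281). Ren1 of FL11, where these genes were low, was 101 TPM, between FL01 and FL02, and Ren1 of GC11 and GC12 was above every GC_WT kidney. The highest Ren1 of GC_KO was in GC02 (81.3 TPM) and that of FL_KO in FL02 (121 TPM), where these genes were high. The part of these genes in the genotype difference of Ren1 was not tested.

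Proximal tubule and collecting duct markers lay on opposite sides of 0 between genotypes. All 7 proximal tubule markers were below 0 (median log2 fold change -0.23), and all 6 principal cell and all 6 intercalated cell markers above 0 (0.21 and 0.25), of which edgeR called 3, 0 and 0. Distal convoluted tubule markers were 2 above and 3 below 0 (median -0.053). Slc13a3 (-0.96 and -0.98) and Slc22a6 (-0.51 and -0.49) were called both for GC_KO against GC_WT and for FL_KO against FL_WT, and Slc22a8 for the average alone.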
